A study of Homo sapiens with 4 samples.

Results

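The genes described here are 8 chemokine genes known from natural killer (NK) cells, CCL1, CCL3, CCL4, CCL5, CCL22, XCL1, XCL2 and CXCL8. They were taken by symbol from the 20323 genes of the deposited table, through their Ensembl identifiers, and all 8 were listed. RNA-seq was performed on 4 libraries of NK-92, a human NK cell line that grows with interleukin 2. In NK scramble cells (2 libraries) the lentivirus delivered a control hairpin, and in NK shADAR1 cells (2 libraries) one against ADAR1, an enzyme that edits adenosine to inosine in double-stranded RNA. The labels number the knockdown libraries 1 and 2, which were read as replicate numbers. The study's text names a single hairpin, shADAR1-2, for the sequenced knockdown cells, although it also numbers its hairpins in the style of these labels. All results are from 1 cell line, and the knockdown was the only change between the groups that the labels name. Values are given in the order control (NK scramble) replicates 1 and 2, then knockdown (NK shADAR1) replicates 1 and 2. In bulk RNA, fewer expressing cells and less RNA per cell cannot be told apart.

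Chemokines are small secreted proteins that guide leukocytes along gradients through receptors of the G protein-coupled family, and they are named by the spacing of their first cysteines (C, CC, CXC). CCL3, CCL4 and CCL5 are the CC chemokines that activated NK cells and cytotoxic T cells release, and they attract monocytes, T cells and other NK cells through CC chemokine receptors. XCL1 and XCL2, the C chemokines, bind XCR1 on cross-presenting dendritic cells. CCL1 acts through CCR8, CCL22 through CCR4 on regulatory T cells, and CXCL8 attracts neutrophils through CXCR1 and CXCR2. CCL3, CCL4 and XCL1 are quickly induced genes whose transcription responds to NF-kappa B and AP-1 factors.

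XCL1 and XCL2, CCL3 and CCL3L3, and CCL4 and CCL4L2 are near-identical copies, and this bears on each value below because reads from one can be counted for the other. The identifier named CCL3L3 here (ENSG00000276085) is called CCL3L1 in GENCODE release 29. Both XCL genes lie on chromosome 1 (GRCh38), XCL2 on the minus strand from 168540765 to 168543997 and XCL1 on the plus strand from 168576473 to 168582077. CCL3 (minus strand, 36088256 to 36090169) and CCL4 (plus strand, 36103590 to 36105621) lie side by side on chromosome 17, and their copies lie further along it at 36194869 to 36196758 and 36210924 to 36212878. CCL5 (35871491 to 35880793) and CCL1 (34360328 to 34363231) are on the same chromosome, both on the minus strand. CCL22 is on chromosome 16 and CXCL8 on chromosome 4. The coding sequences of XCL1 and XCL2 differed at 5 of 342 bases, and the encoded proteins at 2 of 114 residues. CCL4 and CCL4L2 differed at 7 of 276 coding bases, and CCL3 and CCL3L3 at 9 of 276 aligned coding bases.

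To show how little separates the copies, the 90 coding bases with the most differences are printed for each pair, 5′ to 3′ on the transcript strand, with the differing bases in capitals. Each stretch spans an intron, so its genomic span is wider than 90 bases. For the C chemokines it runs from exon 1 to exon 2 (chr1:168576671-168580124, plus strand, for XCL1 and chr1:168542046-168543931, minus strand, for XCL2) and holds 3 differences.
XCL1: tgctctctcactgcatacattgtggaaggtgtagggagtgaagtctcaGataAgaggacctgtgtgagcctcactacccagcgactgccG
XCL2: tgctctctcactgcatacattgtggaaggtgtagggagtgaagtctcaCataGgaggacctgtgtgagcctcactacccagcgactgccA

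For the CC chemokines the stretches run from exon 2 to exon 3. That of CCL3 (chr17:36088693-36089202, minus strand) and CCL3L3 (chr17:36195307-36195817, minus strand) holds 5 differences, and that of CCL4 (chr17:36104599-36105270, plus strand) and CCL4L2 (chr17:36211847-36212527, plus strand) holds 4.
CCL3: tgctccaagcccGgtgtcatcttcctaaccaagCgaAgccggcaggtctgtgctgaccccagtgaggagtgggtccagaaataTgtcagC
CCL3L3: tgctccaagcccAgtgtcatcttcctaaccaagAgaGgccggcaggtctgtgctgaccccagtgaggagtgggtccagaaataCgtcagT
CCL4: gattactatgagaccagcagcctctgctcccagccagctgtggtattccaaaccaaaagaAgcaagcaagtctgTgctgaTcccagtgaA
CCL4L2: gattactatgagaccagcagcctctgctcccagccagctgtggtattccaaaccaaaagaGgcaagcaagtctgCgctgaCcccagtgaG

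The longest coding transcript of XCL2 shared 46.3% of its 50-base stretches and 6.44% of its 100-base stretches with XCL1. For CCL4 these shares were 21.3% and 5.59% with CCL4L2, and for CCL3 9.88% and 0% with CCL3L3. The transcript of CCL5 shared 7.50% of its 100-base stretches with transcripts of 11 other genes, while CCL1 and CXCL8 shared none at either length.

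Depth was 37881704 to 39960491 estimated counts per library. Log2 CPM (counts scaled to a common depth with the TMM method of edgeR) correlated between libraries at r = 0.986 to r = 0.994 over 11810 tested genes. Replicates correlated at r = 0.988 in NK scramble and r = 0.986 in NK shADAR1 cells, so the largest r was between libraries of different groups. ADAR, the targeted gene, stood at 655 and 682 CPM in the controls against 575 and 482 CPM after knockdown, lower in both knockdown libraries. Its log2 fold change of -0.34 (SE 0.20, adjusted p = 1.00, edgeR) did not pass a test that 0 of the 11810 genes passed. The study itself reports the ADAR1 knockdown in NK-92 cells by qRT-PCR and western blot. All 10 NK cell markers were tested, among them NKG7 at 1742 to 2081 FPKM. Among 10 myeloid markers, S100A8, FCN1 and MARCO had 0 counts in every library. The T cell markers CD8A and CD8B and the B cell marker MS4A1 were also at 0, whereas CD3E, which NK cells are known to make, had 396 to 554 FPKM. The T cell receptor constant genes were expressed as well, TRAC at 104 to 139, TRBC1 at 107 to 169 and TRBC2 at 102 to 179 FPKM, with log2 fold changes of 0.23, 0.27 and 0.35 and groups that overlapped in CPM (unadjusted p = 0.276, 0.253 and 0.168, edgeR). Summed FPKM of the 10 T cell markers was 710 and 878 in the controls against 930 and 943 after knockdown. Those of the 6 B cell markers were 2.55 and 2.60 against 4.91 and 4.49, and of the 10 myeloid markers 20.8 and 28.8 against 30.3 and 29.7, most of the myeloid sum from the integrin gene ITGAX. The 8 epithelial and fibroblast markers summed to 68.6 and 53.3 against 53.6 and 53.3, mostly from PDGFRB, and DCN had 9 and 13 against 29 and 26 estimated counts (unadjusted p = 0.0448). The T cell, B cell and myeloid sums were thus higher in both knockdown libraries. CD3E, CD79A and ITGAX, large parts of these sums, overlapped between the groups in CPM. Groups did not overlap for 1 of 5 tested T cell, 1 of 2 B cell and 1 of 4 myeloid markers, each higher after knockdown. The share over all tested genes was 26.0%, either way. Summed FPKM of the 10 NK cell markers was 3984 and 4497 in the controls against 4549 and 4274 after knockdown. The part of these markers in the chemokine values was not tested.

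The 8 chemokines fell into strongly expressed and nearly silent genes in every library. On FPKM, which is per transcript length and so allows genes to be compared, CCL5 reached 804 and 858 in the controls and 936 and 926 after knockdown. CCL3 reached 890 and 865 in the controls and 704 and 761 after knockdown. By mean FPKM these were the 104th and 114th most abundant of all 20323 genes, and their ranges overlapped. CCL3 was above CCL5 in both controls, and CCL5 was above CCL3 in both knockdown libraries. On estimated counts, which are not per length, CCL5 was above CCL3 in every library. The switch in order on FPKM was not tested. CCL4 ranged from 101 to 291 FPKM, XCL2 from 65.5 to 151 FPKM and XCL1 from 33.5 to 97.0 FPKM. CCL4 was below CCL3 in each library, while the ranges of CCL4 and XCL2, and of XCL2 and XCL1, overlapped. Within each of the 4 libraries, however, CCL4 was above XCL2 and XCL2 above XCL1 on FPKM. On estimated counts XCL1 was above XCL2 in each library, with 1627 and 1454 in NK scramble replicate 1. The longest coding transcript has 1367 bases for XCL1 and 565 for XCL2, and the division of reads between these copies is uncertain. CCL1 followed at 0.084 to 0.267 FPKM, and CCL22 (0 to 0.027 FPKM) and CXCL8 (0 to 0.016 FPKM) came last with overlapping ranges.

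**Figure D1:**
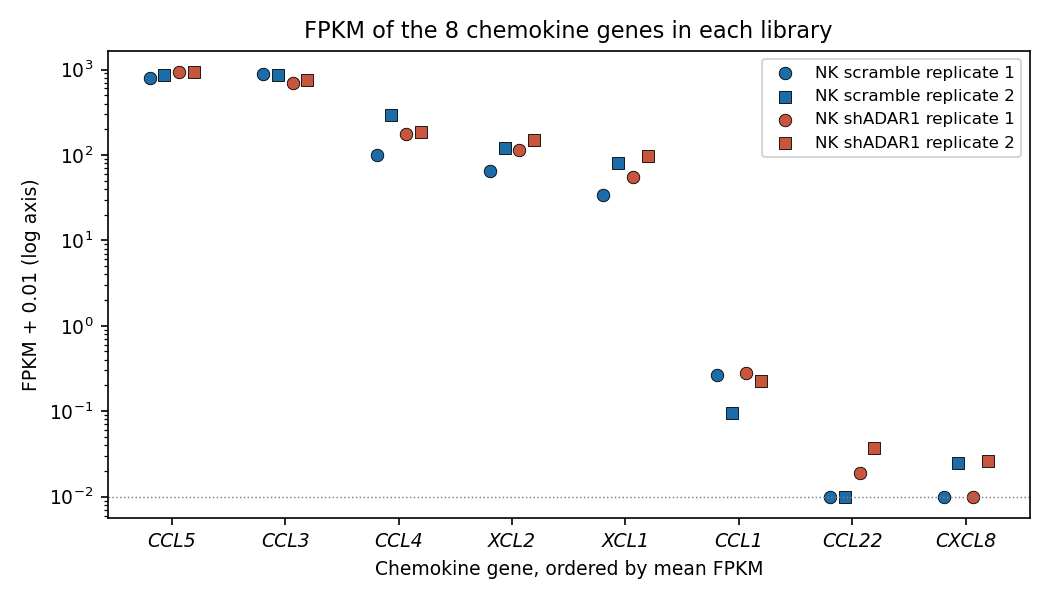
FPKM plus 0.01 on a log axis for the 8 chemokine genes, ordered by mean FPKM, with one point per library (circles replicate 1, squares replicate 2; blue NK scramble, red NK shADAR1; points on the dotted line are at 0). CCL5 and CCL3 lie at 704 to 936 FPKM, CCL4, XCL2 and XCL1 at 33.5 to 291 FPKM, and CCL1, CCL22 and CXCL8 below 1.

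Of the 46 chemokine ligand genes in the table, 38 are not among the 8. Of these 38, 21 had 0 counts in every library, and 3 passed the count filter, CCL18, CCL3L3 and CCL4L2. CCL5 took 34.1% to 42.5% of the summed FPKM of the 46 ligands and CCL3 31.9% to 41.3%. CCL18, a chemokine best known from macrophages and dendritic cells, took 5.40% to 8.65%. Its estimated counts were 9826 and 8613 in the controls and 6004 and 7704 after knockdown, lower in both of the latter, with a log2 fold change of -0.37 (SE 0.21, unadjusted p = 0.107).

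CCL1, CCL22 and CXCL8 did not pass the count filter. CCL1 had 6 and 2 counts in the controls and 6 and 5 after knockdown. Its highest share of a library, 0.158 CPM of the unscaled total in NK shADAR1 replicate 1, had an exact 95% binomial interval of 0.0581 to 0.345 CPM (Clopper-Pearson). Summed within groups, 11 counts after knockdown against 8 in the controls gave a depth-adjusted ratio of 1.42 with an exact interval of 0.520 to 4.07, so no difference was detectable at this depth. CCL22 had 0 counts in both NK scramble libraries and 1 and 3 in NK shADAR1 libraries. A count of 0 allows up to 0.0759 and 0.0751 CPM in the controls by a floor of 3 counts, and the exact 95% intervals reach 0.0933 and 0.0923 CPM, above the 0.0778 CPM measured in NK shADAR1 replicate 2. CXCL8 had 1 count in replicate 2 of each group and 0 in both replicates 1. These intervals cover counting error only.

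The knockdown comparison asked whether chemokine RNA differed between NK shADAR1 and NK scramble cells. Of the 8 genes, 5 passed the filter, with 3 fitted values higher (CCL5, XCL1, XCL2) and 2 lower (CCL3, CCL4) and a median log2 fold change of 0.16, against 0.000028 over all 11810 tested genes. None of the 5 passed an adjusted p of 0.05 together with a 1.5-fold change (edgeR's quasi-likelihood test), where 0% of all tested genes were called. DESeq2 also called 0 of the 5 and 0 of all genes. The study, which used DESeq2, reports 196 differentially expressed genes at an adjusted p under 0.05 and the same fold change. In the DESeq2 fit here, 196 genes passed that fold change with an unadjusted p under 0.05. Only these totals are equal, and whether the genes are the same was not tested. None of the 5 had an unadjusted p under 0.05 in edgeR either, where 293 genes or 2.48% of all tested genes did, and 213 genes or 1.80% with the fold change as well. The groups did not overlap in CPM for 2 of the 5, CCL5 and CCL3, against 26.0% of all tested genes. The smallest two-sided p that an exact permutation test of 2 against 2 libraries allows is 0.333, and such a test was left out.

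CCL5, the most abundant of the 8 by mean FPKM, stood at 974 and 1067 CPM in the controls against 1103 and 1170 CPM after knockdown. Both knockdown libraries lay above both controls, by a small margin. The means were 1020 ± 66.2 and 1137 ± 47.4 CPM (SD, n = 2). The log2 fold change was 0.16 with a 95% interval from -0.30 to 0.61 (adjusted p = 1.00, edgeR), so the rise did not pass the test. Its replicates were also close, differing 1.10-fold in NK scramble and 1.06-fold in NK shADAR1 cells. The deposited counts of CCL5 are not whole numbers, and none of the other genes completed them to whole numbers.

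CCL3 stood at 687 and 686 CPM in the controls against 529 and 612 CPM after knockdown, lower in both knockdown libraries. The means were 687 ± 0.843 and 571 ± 59.1 CPM (SD, n = 2). The log2 fold change was -0.27 (SE 0.20, 95% interval -0.71 to 0.18, adjusted p = 1.00, edgeR), so the decrease did not pass the test. The NK scramble replicates of CCL3 were nearly equal, and 99.3% of tested genes had a larger replicate ratio there. The estimated counts of its copy CCL3L3 were 1695 and 2784 in the controls and 1747 and 1637 after knockdown, with overlapping groups and a log2 fold change of -0.36 (SE 0.25). That value became 0.050 without NK scramble replicate 2, the library with the highest count. CCL3 held 90.6% to 94.2% of the counts of the pair.

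CCL4 stood at 65.6 and 195 CPM in the controls against 110 and 125 CPM after knockdown. Both knockdown libraries thus lay between the controls, which differed 2.97-fold from each other. Only 0.288% of tested genes had a larger ratio between the NK scramble replicates. The means were 130 ± 91.4 and 118 ± 10.3 CPM (SD, n = 2), and the log2 fold change was -0.15 with a wide 95% interval from -1.01 to 0.72 (adjusted p = 1.00, edgeR). The direction depended on which control was kept, with -0.73 without NK scramble replicate 1 and 0.84 without NK scramble replicate 2. CCL4L2 followed the same order in the controls, with estimated counts of 650 and 1485, against 1217 and 906 after knockdown.

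XCL1 stood at 40.7 and 101 CPM in the controls against 65.4 and 123 CPM after knockdown. Replicate 2 was the higher library in each group, and the groups overlapped. The means were 70.6 ± 42.3 and 94.1 ± 40.7 CPM (SD, n = 2), and the log2 fold change was 0.41 (SE 0.40, 95% interval -0.46 to 1.29, adjusted p = 1.00, edgeR). Replicates differed 2.47-fold in NK scramble and 1.88-fold in NK shADAR1 cells, and 0.711% and 3.43% of tested genes had larger ratios. The value was -0.097 without NK scramble replicate 1, 1.20 without NK scramble replicate 2, 0.80 without NK shADAR1 replicate 1 and -0.11 without NK shADAR1 replicate 2.

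XCL2 stood at 36.4 and 68.1 CPM in the controls against 61.7 and 87.7 CPM after knockdown, with means of 52.3 ± 22.4 and 74.7 ± 18.3 CPM (SD, n = 2). The order of the libraries was the same as for XCL1, and the groups overlapped. Its log2 fold change of 0.51 was the highest of the 5 (SE 0.30, 95% interval -0.14 to 1.17, unadjusted p = 0.113, adjusted p = 1.00, edgeR). It stayed above 0 each time 1 library was left out, at 0.13 without NK scramble replicate 1, 1.03 without NK scramble replicate 2, 0.75 without NK shADAR1 replicate 1 and 0.24 without NK shADAR1 replicate 2.

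The estimated counts of the copies were fractional but added up to whole numbers in all 4 libraries. XCL1 and XCL2 summed to 3081 and 6627 in the controls and to 4999 and 7863 after knockdown. XCL2 was the only gene in the table that completed XCL1 in this way (within 0.011 of a whole number in each library), and the same was true of CCL3L3 for CCL3 and of CCL4L2 for CCL4. The division between copies is therefore uncertain, while the sums are not affected by it. XCL1 took 52.8% and 59.6% of its pair in the controls and 51.4% and 58.4% after knockdown. With the copies summed before the fit, log2 fold changes were 0.46 for XCL1 with XCL2 (95% interval -0.31 to 1.23), -0.27 for CCL3 with CCL3L3 (95% interval -0.72 to 0.17) and -0.11 for CCL4 with CCL4L2 (95% interval -0.95 to 0.72). Each had an adjusted p of 1.00 in edgeR.

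**Figure D2:**
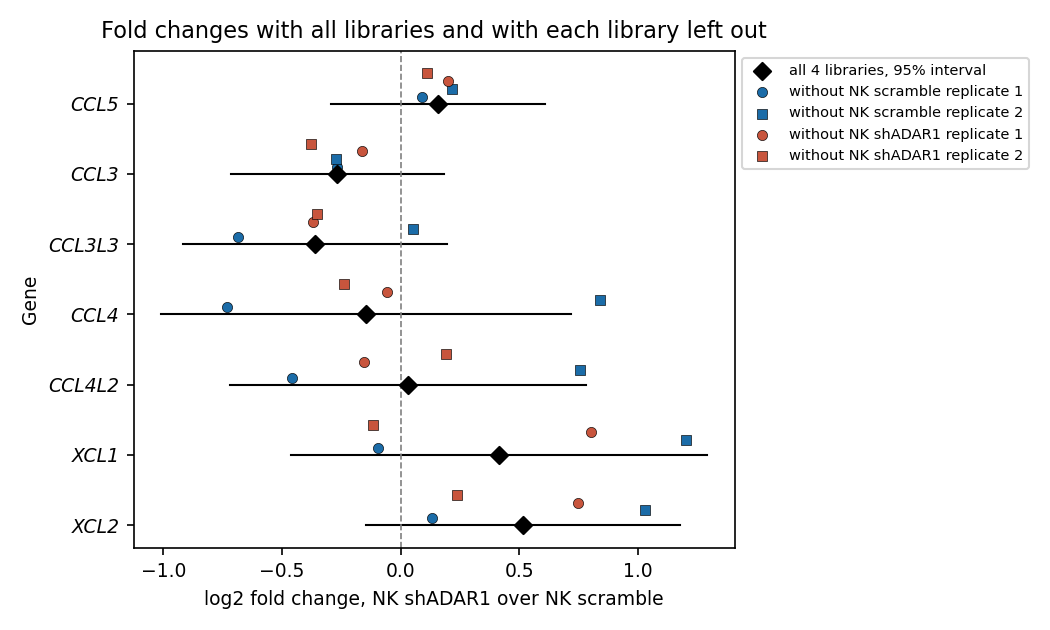
Log2 fold change of NK shADAR1 over NK scramble for the 5 tested chemokine genes and 2 copies (diamonds, with 95% intervals from edgeR) and the same value with 1 library left out (colored points; blue when a NK scramble and red when a NK shADAR1 library was left out). All intervals include 0, CCL4 moves from -0.73 to 0.84 and XCL1 from -0.11 to 1.20, while CCL3 and CCL5 move least.

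The receptors of the 8 chemokines were read in the same fit. Of 10 receptor genes, 6 were tested, and none had an unadjusted p under 0.05. For CCR1, the receptor of CCL3 and CCL5 with the highest level, estimated counts were 8073 and 8379 in the controls and 6697 and 5086 after knockdown. Both knockdown libraries were lower, with a log2 fold change of -0.44 (SE 0.20, unadjusted p = 0.0518, adjusted p = 1.00, edgeR). XCR1, the receptor of both C chemokines, had 8.04 to 10.1 FPKM and a log2 fold change of -0.14. Chosen after their values were seen, CXCR1 and ACKR2 were higher in both knockdown libraries. Groups thus did not overlap in CPM for 2 higher and 1 lower of the 6, against 26.0% of all tested genes. CXCR1, a receptor of CXCL8, had the largest log2 fold change of the list at low counts (16 and 7 against 19 and 39), 1.39 (SE 0.67, unadjusted p = 0.0657). ACKR2, a scavenging receptor for CC chemokines, had 68 and 63 against 75 and 74 counts. Its log2 fold change was 0.23 (SE 0.41, unadjusted p = 0.583, edgeR). CCR4, CCR8 and the CXCL8 receptor CXCR2 did not pass the filter, and CXCR2 had 0 counts in every library.

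Among transcription factors and feedback inhibitors that act on chemokine genes, 24 of 25 were tested, 19 with a lower and 5 with a higher fitted value in NK shADAR1 cells (median log2 fold change -0.17). None was called after adjustment, and 3 had an unadjusted p under 0.05, all lower. Over all 11810 tested genes, 5905 fitted values were lower and 5905 higher, and of the 293 at an unadjusted p under 0.05, or 2.48%, 92 were lower and 201 higher. The 3 genes of this list were RELB, NFKB2 and CEBPB. RELB and NFKB2 are the subunits of the noncanonical NF-kappa B pathway, and CEBPB acts with NF-kappa B at the CXCL8 promoter. RELB counts were 1017 and 1014 in the controls and 702 and 510 after knockdown, a log2 fold change of -0.70 (SE 0.22, unadjusted p = 0.00933). NFKB2 had 3178 and 3052 against 1774 and 2273 estimated counts, a log2 fold change of -0.57 (SE 0.21, unadjusted p = 0.0235). Both genes were lower in each knockdown library than in each control. In CPM this held for 4 of the 24, and 1 was higher in each knockdown library. Groups did not overlap, either way, for 26.0% of all tested genes. CEBPB had 2031 and 708 against 880 and 398 estimated counts, so its groups overlapped, and replicate 2 was lower in both groups. Its log2 fold change of -1.06 became -0.13 without NK scramble replicate 1. With the replicate number added to the fit as a block, it was -0.98 (unadjusted p = 7.06e-05, adjusted p = 0.0521, edgeR), just short of the threshold. DESeq2 gave CEBPB an unadjusted p of 0.216, but without NK scramble replicate 2 its log2 fold change was -1.63 and its adjusted p 0.0174 in edgeR, past the threshold. Without NK shADAR1 replicate 1 the value for NFKB2 was -0.37 (unadjusted p = 0.184), and without NK shADAR1 replicate 2 that for RELB was -0.52 (unadjusted p = 0.0832). With all libraries and no block, the adjusted p of these 3 genes was 1.00 in edgeR. The factors with the highest levels were IRF1, EOMES and TBX21, with log2 fold changes of -0.25, 0.15 and -0.17, and none had an unadjusted p under 0.05.

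NFKBIA and TNFAIP3, feedback inhibitors that NF-kappa B itself induces, were chosen after their values were seen. NFKBIA counts were 1859 and 3466 in the controls and 2070 and 1879 after knockdown, and those of TNFAIP3 were 1231 and 2362 against 1278 and 1595. NK scramble replicate 2 was the highest library for both, as it was for CCL4, CCL4L2 and CCL3L3. Any part of this library's state in the chemokine values was not tested.

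Proteins that bind AU-rich elements or stem-loops in short-lived mRNAs, through which many cytokine and chemokine transcripts are degraded or kept, were all tested (11 genes). Their fitted values were higher for 5 and lower for 6, with a median log2 fold change of -0.11, and none had an unadjusted p under 0.05. HNRNPD, KHSRP and ELAVL1 had the highest levels of the list, at log2 fold changes of 0.022, -0.19 and -0.19. HNRNPD varied more with the replicate number than with the group, at estimated counts of 13683 and 22569 in the controls against 13938 and 21531 after knockdown.

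**Figure D3:**
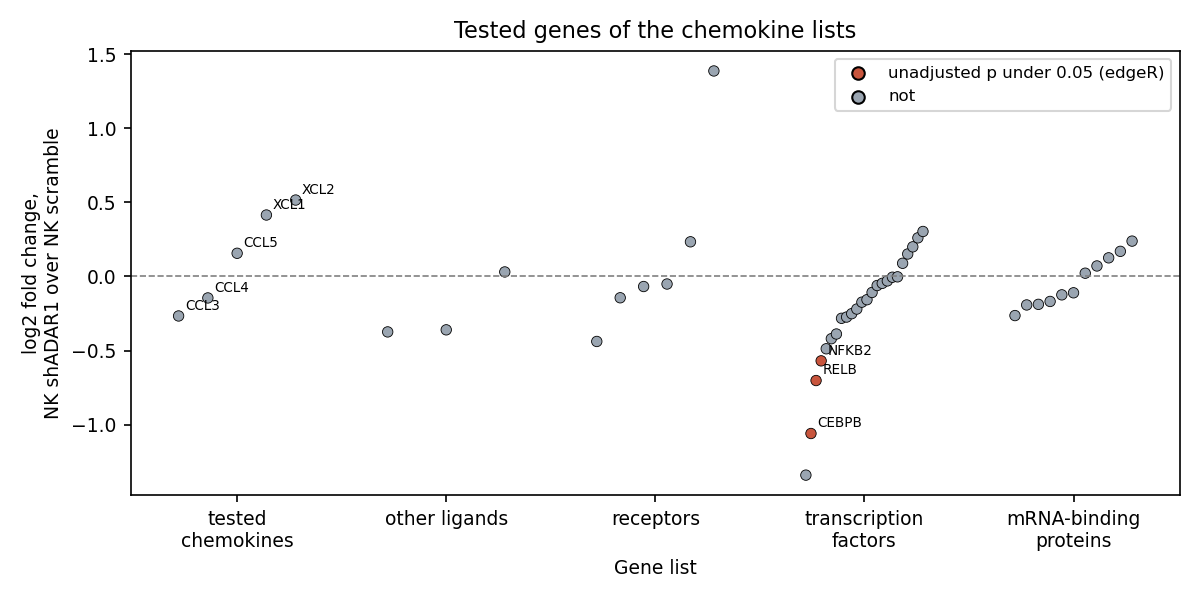
Log2 fold change of NK shADAR1 over NK scramble for the tested genes of 5 lists (5 chemokines, 3 other ligands, 6 receptors, 24 transcription factors and inhibitors, 11 mRNA-binding proteins), sorted within each list, with genes at an unadjusted p under 0.05 in red. RELB, NFKB2 and CEBPB are the 3 red points, and the chemokines lie between -0.27 and 0.51.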

How the data were processed

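mRNA of NK-92 cells was enriched with oligo(dT) beads and sequenced for the authors on an Illumina instrument. Their processing notes name fastp 0.18.0, and the aligner, counting program, genome build and annotation are not given in the sources used here. The authors deposited estimated counts, which are not scaled for depth, and FPKM, which are scaled by transcript length and fragments. The kit's strand setting in counting is not stated either.

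Rounded estimated counts that passed filterByExpr (minimum count 10) entered a quasi-likelihood fit in edgeR 4.0.16 (R 4.3.3) with TMM library sizes and no covariate, with p-values adjusted by the Benjamini-Hochberg method over all 11810 genes that passed the filter. Calls needed an adjusted p under 0.05 and at least a 1.5-fold change. Standard errors are the size of the log2 fold change over the square root of F, and 95% intervals use the same fit. The alternatives were upper quartile scaling, RLE scaling, DESeq2 1.42.0, a looser filter (1 count in any library), a stricter one (a mean of 50 counts), limma 3.58.1 on log2(FPKM + 1), summed copies, the replicate number as a block and each library left out. The script was tested on simulated counts. Libraries held 37881704 to 39960491 estimated counts, which makes counting error small for the tested chemokine genes. It is larger for genes at low counts, among them CXCR1 and DCN, and for CCL1, CCL22 and CXCL8. For CCL1, CCL22 and CXCL8, exact intervals and floors of 3 counts cover counting error only.

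Symbols came from Ensembl identifiers and matched 20301 of 20323 genes. Positions and transcript sequences are from GENCODE release 29 (GRCh38), compared with Biopython 1.88. All members were named, with genes of the other lists that had an unadjusted p under 0.05 or were among the 3 of a list with the highest mean FPKM. Members and lists were chosen with earlier results of these data known. Proteins of copies were compared by translating these coding sequences, and no amino acid sequence is printed. The values of 1 receptor gene are not reported here.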

Additional observations from a re-analysis of the deposited data

How the results depend on the processing

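None of the 5 tested chemokine genes was called under any of the 12 alternatives, and their adjusted p-values ranged from 0.268 to 1.00. The directions of CCL3, CCL5 and XCL2 held throughout, where the value with copies summed is that of the pair for CCL3 and XCL2. CCL4 turned to 0.053 with the replicate number as a block (replicate block) and to 0.063 with limma on log2(FPKM + 1). With copies summed, the pair of CCL4 and CCL4L2 had -0.11, against 0.030 for CCL4L2 alone in the main fit. With 1 library left out, log2 fold changes ranged from -0.73 to 0.84 for CCL4, from -0.11 to 1.20 for XCL1, from -0.69 to 0.050 for CCL3L3 and from -0.46 to 0.76 for CCL4L2. With 1 library in a group, that library is assumed to vary like those of the other group.

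Over all genes, the 0 calls became 13 with the replicate block and 1 to 47 with 1 library left out (47 without NK scramble replicate 1, 2 without NK scramble replicate 2, 16 without NK shADAR1 replicate 1 and 1 without NK shADAR1 replicate 2). The count of 213 at an unadjusted p under 0.05 with the fold change became 108 with limma and 200 to 652 with 1 library left out. The replicate numbers are not stated to pair the libraries. Deviations from group means correlated at r = 0.36 between libraries of the same number across 11810 genes, which are not independent replicates. Under the block, log2 fold changes were 0.48 for XCL1 (unadjusted p = 0.0142) and 0.56 for XCL2 (unadjusted p = 0.00591), with adjusted p-values above the threshold. CCL1, CCL22 and CXCL8 are limited by depth.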
